A study of Mus musculus with 10 samples.

Results

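The conjugating enzymes described here are the UDP-glucuronosyltransferases (UGT), the glutathione S-transferases (GST) and the sulfotransferases (SULT) of the mouse. They were found by symbol: genes named Ugt1, Ugt2, Ugt3, Gsta, Gstm, Gstp, Gstt, Gstk, Gsto, Gstz, Mgst or Sult with a digit, pseudogenes left out. The rule found 67 genes among the 22053 in the deposited table: 21 UGT, 25 GST and 21 SULT genes. RNA came from glomeruli, the tufts of capillaries that filter blood in the kidney, of mice labelled Col4a3 wild-type (5 libraries) or Col4a3 p.G799R (5 libraries), a missense change in the alpha 3 chain of type IV collagen. The labels give no treatment, age, sex, strain, zygosity or way of isolating glomeruli, and do not state whether each library is a different mouse; p-values therefore reflect only how far these libraries differ, which could be technical. The design text names the comparison of mutant with wild type. Ddx3y, a Y-linked gene, was at 15.1 to 36.5 FPKM over the libraries, so every library held RNA of males.

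These enzymes make reactive or poorly soluble compounds easier to excrete. UGT enzymes sit in the endoplasmic reticulum and attach a sugar, usually glucuronic acid taken from UDP-glucuronic acid. Most GST enzymes are cytosolic and join glutathione to electrophiles, while the Mgst enzymes are unrelated membrane proteins with a like reaction. SULT enzymes move sulfate from the donor PAPS to hormones, phenols and drugs. In the kidney much of this capacity lies in the proximal tubule, which also takes up many of the substrates from blood.

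Facts of the libraries bear on every value below. The FPKM of a library summed to between 320720 and 340875; absolute depth is unknown, and the step size of low values gave a relative depth of 0.862 to 1.19. All 30 proximal tubule markers were lower in G799R, with a summed FPKM of 9048 to 16720 in wild type and 1074 to 2778 in G799R, and none of them was at 0 in every library. Their score, the mean log2(FPKM + 1), averaged 7.26 ± 0.33 over wild-type libraries and 4.49 ± 0.40 over G799R libraries (SD, n = 5 each). For the distal tubule and collecting duct, 25 of 26 markers were lower. The defining markers of the labelled tissue were present: all 24 podocyte markers, 19 of 24 endothelial and 15 of 20 tested mesangial markers were higher in G799R. Of all tested genes 19.3% were lower and 40.5% higher, so a rise was common and not particular to these markers. In bulk RNA, fewer cells of a type and less RNA per cell cannot be told apart. The part of the tubule markers in the differences below was not tested. Values relative to them are given, but the score itself differs between the groups, so these values cannot measure that part.

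UGT genes were much lower in G799R glomeruli, most of the GST genes were lower by smaller amounts, and a group of GST genes of the mu, pi and alpha classes together with Sult1a1 was not. Of the 67 genes, 37 reached the mean of 0.5 FPKM needed for a test. The mean was taken over all 10 libraries, so a gene under it in 1 group could pass through the other. By limma with Benjamini-Hochberg adjustment over all 13117 tested genes, 27 of these 37 were lower at an adjusted p under 0.05, where 19.3% of all tested genes were lower. Only 2 were higher, where 40.5% of all genes were, and 8 were not called. The median log2 difference, G799R minus wild type on the log2(FPKM + 1) scale, was -1.30 for the 37 genes and 0.17 for all tested genes. In 25 genes every G799R library lay below every wild-type library, as for 15.7% of all genes, and in 0 genes every G799R library lay above, as for 26.1% of all genes. A fall of at least 2-fold was called in 23 genes, and in 8.12% of all genes.

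**Figure D1:**
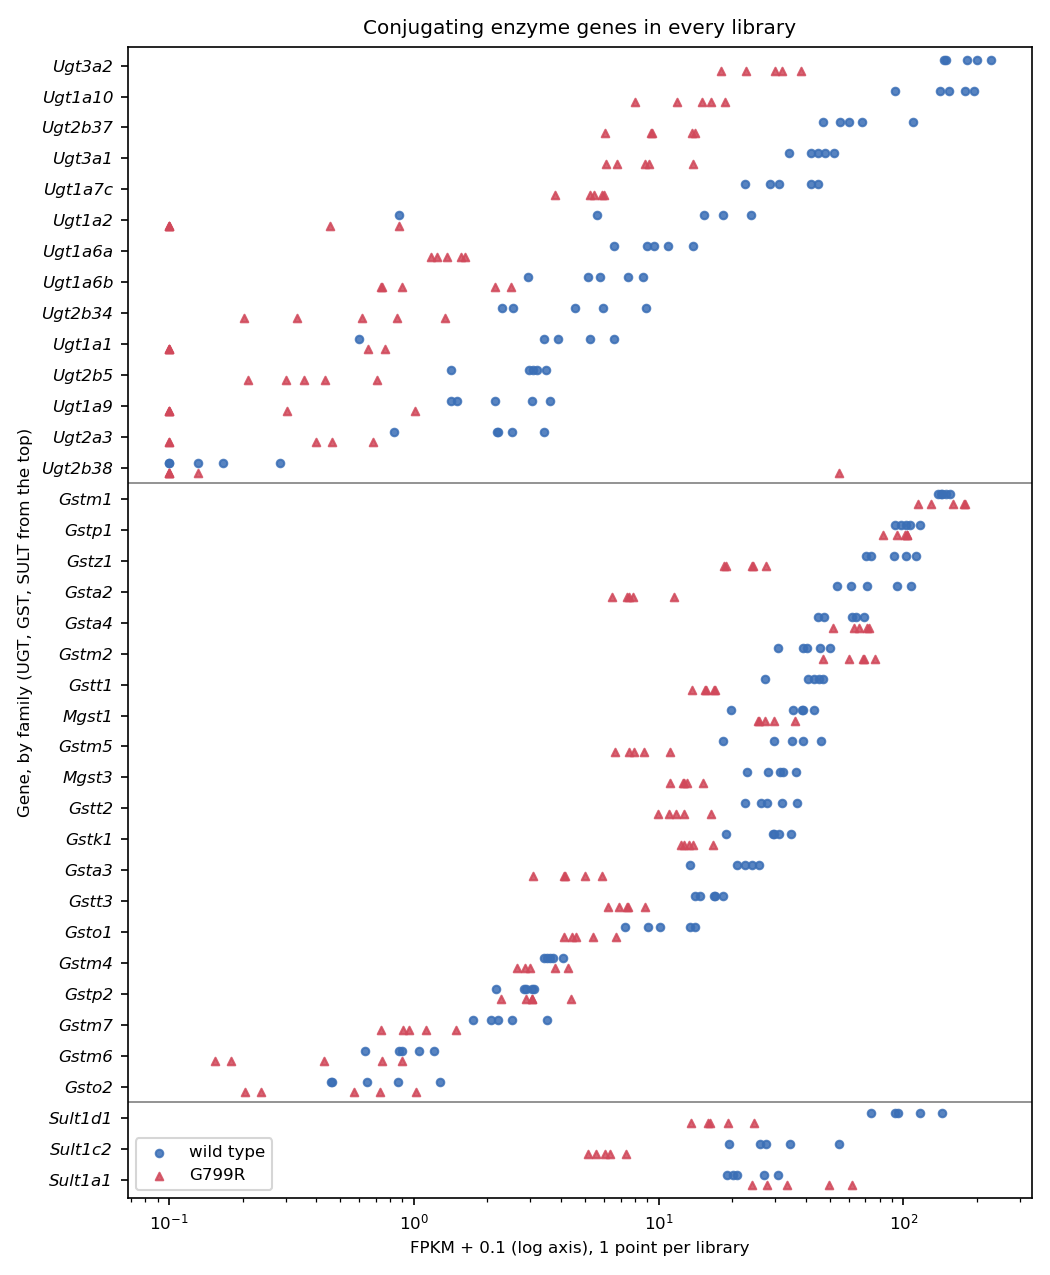
FPKM + 0.1 of the 37 tested genes on a log axis, by family, with wild-type libraries as blue circles and G799R libraries as red triangles. Ugt3a2, Ugt1a10 and Gsta2 separate widely, Gstm1 and Gstp1 overlap, and Ugt2b38 is high in a single G799R library at 54.7 FPKM.

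Of the 14 tested UGT genes 13 were lower and 0 higher, with a median log2 difference of -2.02. Among the 13, Ugt1a1, Ugt1a2, Ugt1a9, Ugt2a3 and Ugt2b5 averaged 0.223 to 0.302 FPKM in G799R. They passed the filter of 0.5 FPKM only through their wild-type values. Summed over the family, UGT genes stood at 523 ± 113 FPKM in wild type and 81.9 ± 37.5 FPKM in G799R (SD, n = 5 each). FPKM is scaled by length, so levels can be set side by side: in wild type Ugt3a2 held 34.9% of the family sum, Ugt1a10 28.8% and Ugt2b37 12.9%.

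The Ugt1 genes share a locus on chromosome 1, from 88055388 at the start of Ugt1a10 to 88220002 at the end of Ugt1a7c on the plus strand of GRCm38. Each has its own promoter and first exon, and all share the later exons. Reads from the shared exons cannot be assigned to a single gene. Of the 50-base stretches in the longest transcript, 66.2% of those of Ugt1a10 and 58.2% of Ugt1a1 also occur in transcripts of another gene. For Ugt1a6a it was 100%, all found in transcripts of Ugt1a7c. That overlap takes in more than the later exons and leaves Ugt1a6a no stretch of its own. The level of any single Ugt1 gene is therefore uncertain, and the sum over the cluster less so. That sum was 220 ± 54.3 FPKM in wild type and 22.6 ± 5.33 FPKM in G799R, 9.76-fold lower.

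Because the promoters are what distinguishes these genes, the 250 bases before the RefSeq start are shown for the most abundant pair, Ugt1a10 and Ugt1a7c (RefSeq on GRCm38.p6, plus strand, chr1:88055161-88055410 and chr1:88094751-88095000), in lower case since neither holds any of the motifs reported here (TGACNNNGC, GCGTG and TATAAA).
Ugt1a10: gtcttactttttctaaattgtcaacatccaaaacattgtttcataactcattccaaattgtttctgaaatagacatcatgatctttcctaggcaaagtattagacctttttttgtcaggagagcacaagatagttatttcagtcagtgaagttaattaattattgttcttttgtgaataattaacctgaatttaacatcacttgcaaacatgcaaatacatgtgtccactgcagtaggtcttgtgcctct
Ugt1a7c: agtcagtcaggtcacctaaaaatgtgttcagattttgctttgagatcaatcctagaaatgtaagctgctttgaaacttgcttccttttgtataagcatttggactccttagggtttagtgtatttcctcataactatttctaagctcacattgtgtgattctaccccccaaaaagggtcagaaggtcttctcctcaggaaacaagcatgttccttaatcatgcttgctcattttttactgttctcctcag
RefSeq promoters matched 59 of the 67 genes and 33 of the 37 tested.

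Ugt1a10 showed the largest fall of the 37 genes on the log2(FPKM + 1) scale; by the ratio of mean FPKM Ugt1a2 (56.4-fold) and Ugt1a1 (15.7-fold) were further down, and Ugt1a2 also with a pseudocount of 0.1 or 0.5. Ugt1a10 stood at 92.6, 178, 141, 194 and 153 FPKM in wild-type libraries 1 to 5 and at 18.6, 16.2, 15.0, 11.8 and 7.90 FPKM in G799R libraries 1 to 5. Every G799R library was far below the lowest wild-type library. The log2 difference was -3.36 ± 0.23 (SE; limma adjusted p = 2.1e-06), a 10.9-fold lower mean.

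Ugt1a7c, which with the 1a6 genes conjugates small planar phenols, was at 33.7 ± 9.41 FPKM in wild type and 5.17 ± 0.89 FPKM in G799R (limma adjusted p = 2.2e-06). Ugt1a6a was 7.64-fold and Ugt1a6b 4.52-fold lower, but 100% and 80.7% of their 50-base stretches also occur in Ugt1a7c, so these falls are not separate from its fall. Ugt1a2 varied most within wild type, at 0.773, 18.2, 15.2, 5.51 and 23.7 FPKM, against 0, 0.768, 0, 0.356 and 0 FPKM in G799R. Wild-type library 1 thus lay just above the highest G799R library while the other wild-type libraries were well above. Ugt1a1, the bilirubin-conjugating enzyme, had the same pattern, with wild-type library 1 at 0.499 FPKM and the other wild-type libraries at 3.30 to 6.46 FPKM, against 0 to 0.667 FPKM in G799R, so that the groups overlapped (limma adjusted p = 0.0017). Ugt1a9 fell from 2.24 ± 0.95 to 0.223 ± 0.39 FPKM. Ugt1a5 reached at most 0.548 FPKM and Ugt1a8 was listed at 0 in every library.

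The Ugt3 genes lie side by side on chromosome 15. In humans their enzymes use sugars other than glucuronic acid. Ugt3a2 stood at 147, 199, 149, 228 and 182 FPKM in wild type and at 31.7, 29.7, 38.1, 22.6 and 17.9 FPKM in G799R. The groups were far apart, with a log2 difference of -2.68 ± 0.19 (SE; limma adjusted p = 2.2e-06). Ugt3a1 was 4.99-fold lower. The ratio of Ugt3a2 to Ugt3a1 within a library, which no scaling of libraries can change, had a median of 4.17 in wild type and 3.42 in G799R, with overlapping ranges of 3.57 to 4.38 and 2.68 to 3.75.

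The Ugt2 genes form a cluster on chromosome 5 and conjugate steroids and bile acids, among other substrates. Ugt2b37, the highest of them, was at 55.1, 67.6, 47.1, 110 and 60.1 FPKM in wild type and 9.32, 13.9, 13.7, 9.23 and 5.93 FPKM in G799R, without overlap (log2 difference -2.59 ± 0.25 SE; limma adjusted p = 9.0e-06). Ugt2b34, Ugt2b5 and Ugt2a3 averaged 2.13 to 4.74 FPKM in wild type and 0.249 to 0.571 FPKM in G799R, and all 3 were lower. Ugt2b38 passed the filter through 1 library: its value was 54.7 FPKM in G799R library 3, against 0 to 0.184 FPKM elsewhere. That value was 38.0% of the UGT sum of the library. Its neighbours in the cluster did not share it: in the same library Ugt2b37 was at 13.7 FPKM and Ugt2a3 at 0 FPKM. Ugt2b1 reached at most 0.042 FPKM, and Ugt2a1, Ugt2a2, Ugt2b35 and Ugt2b36 were listed at 0 in every library.

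**Figure D2:**
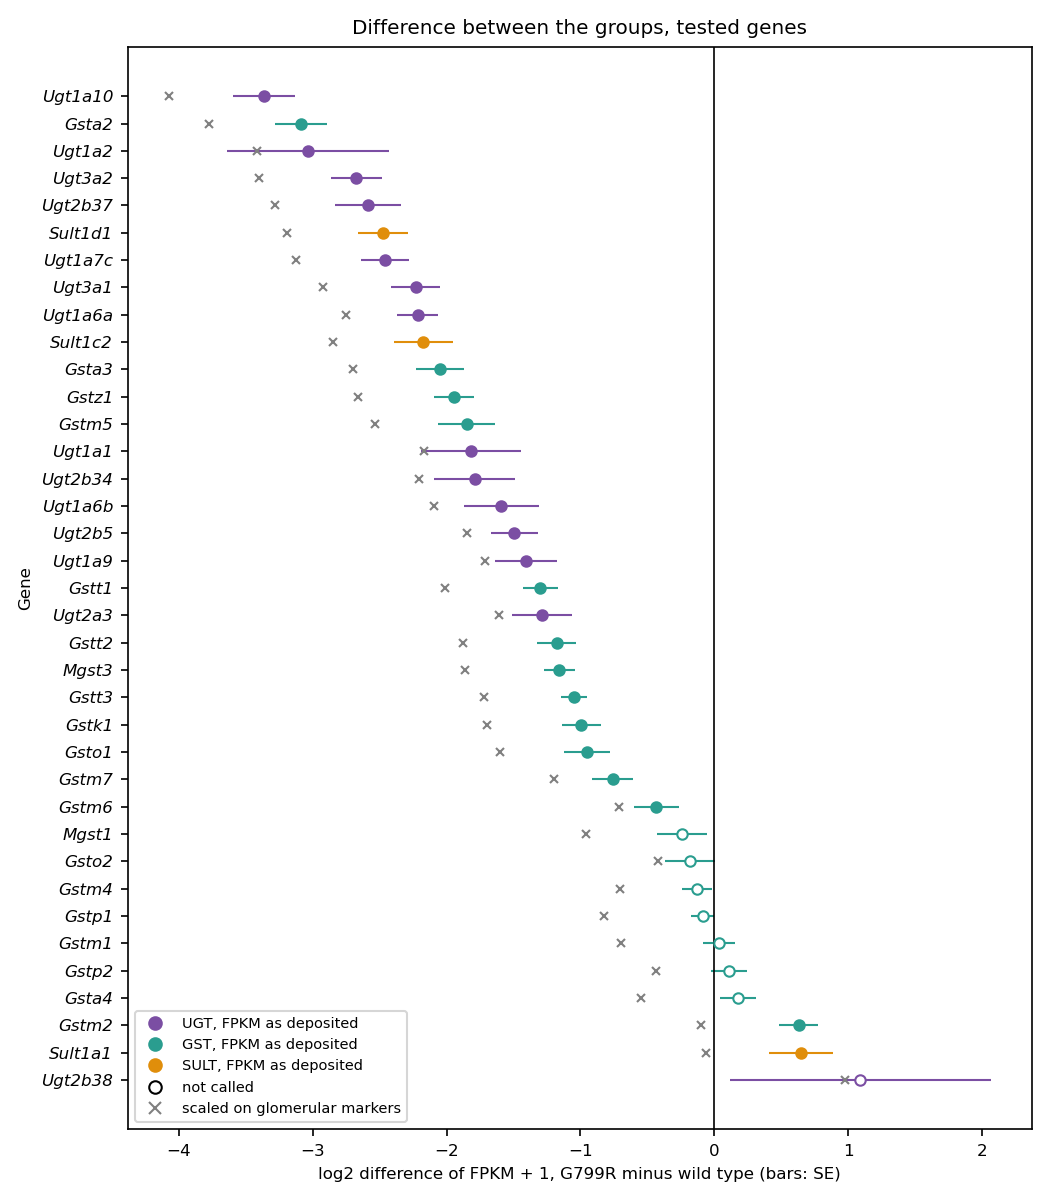
Log2 difference of FPKM + 1, G799R minus wild type, for the 37 tested genes with SE bars, coloured by family; filled points were called by limma and grey crosses give the difference after scaling on glomerular markers. The range runs from -3.36 for Ugt1a10 to 0.65 for Sult1a1, apart from Ugt2b38, whose SE is 0.98.

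GST genes were split. Of 20 tested, 12 were lower, 1 was higher and 7 were not called, with a median log2 difference of -0.86. The family sum was 771 ± 89.7 FPKM in wild type and 525 ± 46.9 FPKM in G799R (SD, n = 5 each), 1.47-fold lower. Gstm1, Gstm2, Gstp1, Gsta4 and Mgst1, grouped after their values were seen, made up between 44.5% and 54.3% of the GST sum of each wild-type library, against 73.4% to 80.2% for G799R.

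Within the alpha class 2 of 3 tested genes were lower and 1 was not called; after scaling on glomerular markers all 3 were lower. Gsta2, a detoxifying and peroxide-reducing enzyme, was at 60.8, 70.9, 53.6, 108 and 94.5 FPKM in wild type and at 7.33, 11.4, 7.76, 7.49 and 6.39 FPKM in G799R. The lowest wild-type library lay well above the highest G799R library, and the mean was 9.59-fold lower (log2 difference -3.09 ± 0.19 SE; limma adjusted p = 1.8e-06). Gsta2 shares 64.2% of its 50-base stretches with other transcripts, chiefly of Gsta1, which itself reached at most 0.373 FPKM. Gsta3 was 4.90-fold lower. Gsta4, which conjugates 4-hydroxynonenal, a product of lipid peroxidation, stood at 47.1, 63.9, 61.8, 44.8 and 68.9 FPKM in wild type and 62.7, 70.7, 72.0, 66.0 and 51.4 FPKM in G799R. Its groups overlapped and it was not called (log2 difference 0.18 ± 0.13 SE; limma adjusted p = 0.26). The ratio of Gsta2 to Gsta4 within a library spanned 0.868 to 2.41 in wild type and 0.108 to 0.162 in G799R, a pair chosen after the values were seen.

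The promoters of Gsta3, Gstm5 and Mgst1 (the 250 bases before a RefSeq start on GRCm38.p6, all on the plus strand, chr1:21240335-21240584, chr3:107895604-107895853 and chr6:138140277-138140526) are shown because each holds, in capitals, TGACNNNGC on either strand, the core of the antioxidant response element through which NRF2 acts, while Gsta3 and Gstm5 were lower and Mgst1 was not called.
Gsta3: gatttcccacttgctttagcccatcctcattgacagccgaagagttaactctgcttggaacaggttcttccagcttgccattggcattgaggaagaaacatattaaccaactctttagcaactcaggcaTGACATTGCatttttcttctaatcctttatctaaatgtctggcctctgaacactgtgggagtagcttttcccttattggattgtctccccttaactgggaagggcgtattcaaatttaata
Gstm5: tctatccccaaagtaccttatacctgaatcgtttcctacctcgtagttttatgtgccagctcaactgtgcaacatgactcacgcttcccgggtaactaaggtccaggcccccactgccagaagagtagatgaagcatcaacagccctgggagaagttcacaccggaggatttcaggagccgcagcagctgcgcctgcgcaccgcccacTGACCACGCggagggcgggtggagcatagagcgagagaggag
Mgst1: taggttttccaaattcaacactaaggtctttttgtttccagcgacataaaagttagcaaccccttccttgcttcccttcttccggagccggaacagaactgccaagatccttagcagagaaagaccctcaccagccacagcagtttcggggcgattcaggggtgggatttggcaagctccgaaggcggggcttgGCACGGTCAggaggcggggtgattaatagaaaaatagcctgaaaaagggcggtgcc
TGACNNNGC occurred on either strand in 4 of the 33 tested genes with a promoter (Gsta3, Gstm5, Gstm7 and Mgst1) and in 10.2% of all 32851 promoters of that length; some genes have several promoters and count once if any holds it. GCGTG, the core read by the aryl hydrocarbon receptor, occurred in 6 of the 33 and in 28.2% of all promoters, and TATAAA in 4 of the 33 and in 12.4%. The matches are letters in a window and say nothing of binding.

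The mu class genes lie side by side on chromosome 3, in the order Gstm5, Gstm7, Gstm6, Gstm3, Gstm2, Gstm1 and Gstm4. The 3 at the Gstm5 end were lower, the 3 tested at the other end were not. Gstm5 was at 18.2, 38.8, 29.5, 45.8 and 35.1 FPKM in wild type and at 7.84, 8.59, 6.53, 11.1 and 7.46 FPKM in G799R, without overlap (log2 difference -1.85 ± 0.21 SE; limma adjusted p = 3.4e-05). Gstm7 was 2.45-fold lower. Gstm6, at most 1.11 FPKM in any library, had overlapping groups and a limma adjusted p of 0.042, which rose to between 0.058 and 0.10 on leaving out wild-type library 1, 2, 4 or 5, or G799R library 1, 2 or 5. Its mean was 0.381 FPKM in G799R, so Gstm6 passed the filter only through wild type, at 0.832 FPKM. Gstm3 reached at most 0.054 FPKM.

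Gstm1, the most abundant GST gene, stood at 144, 155, 138, 150 and 143 FPKM in wild type and at 129, 178, 115, 179 and 160 FPKM in G799R. The G799R libraries lay on both sides of the wild-type range, and the log2 difference of 0.04 ± 0.12 (SE) was not called (limma adjusted p = 0.80). Gstm2 was higher, at 45.6, 40.4, 49.8, 30.8 and 39.0 FPKM in wild type and 47.0, 69.3, 60.0, 76.3 and 68.5 FPKM in G799R. Only G799R library 1 lay within the wild-type range, and the log2 difference was 0.63 ± 0.15 (SE; limma adjusted p = 0.0034). After scaling on glomerular markers the direction turned, at -0.098 with a limma adjusted p of 0.45. The ratio of Gstm2 to Gstm1 was 0.206 to 0.361 in wild type and 0.363 to 0.523 in G799R. These ranges nearly touched, and the pair was chosen after the values were seen. Gstm4, with 3.56 ± 0.26 FPKM in wild type and 3.20 ± 0.69 FPKM in G799R, was not called.

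Of the pi class, Gstp1, which conjugates many electrophiles and binds the stress kinase JNK, was at 92.5, 102, 97.6, 117 and 106 FPKM in wild type and 82.4, 102, 93.8, 104 and 104 FPKM in G799R. The groups overlapped (limma adjusted p = 0.39). Gstp2, at 2.70 ± 0.38 and 3.04 ± 0.77 FPKM, was not called either. The transcripts of Gstp1 and Gstp2 share 62.3% and 64.3% of their 50-base stretches with each other, so their split is uncertain, and the summed pi class stood at 106 ± 9.65 and 100.2 ± 9.72 FPKM.

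All tested genes of the theta, zeta and kappa classes were lower, as was 1 of 2 omega genes. Gstz1, the maleylacetoacetate isomerase of tyrosine breakdown, stood at 70.5, 102, 73.8, 113 and 91.1 FPKM in wild type and 27.3, 24.3, 24.0, 18.4 and 18.7 FPKM in G799R. It was 3.99-fold lower with no overlap (limma adjusted p = 2.6e-06). The theta genes Gstt1, Gstt2 and Gstt3, neighbours on chromosome 10, fell by like amounts, 2.59-fold, 2.37-fold and 2.21-fold. Gstk1, an enzyme of mitochondria and peroxisomes, was 2.09-fold lower and Gsto1, which reduces dehydroascorbate, 2.16-fold lower, both without overlap. Gsto2 reached at most 1.18 FPKM and was not called.

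Of the membrane-bound Mgst genes, Mgst3 was 2.34-fold lower (30.1 ± 5.06 against 12.9 ± 1.48 FPKM; limma adjusted p = 1.4e-05). Mgst1 was at 19.6, 38.7, 35.2, 43.0 and 38.6 FPKM in wild type and 25.7, 27.0, 25.5, 29.6 and 35.9 FPKM in G799R. Wild-type library 1 was the lowest of all 10 libraries, and the gene was not called (log2 difference -0.24 ± 0.19 SE; limma adjusted p = 0.28). Without that library Mgst1 was called lower, at -0.43 (limma adjusted p = 0.0045). Mgst2 reached at most 0.148 FPKM.

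**Figure D3:**
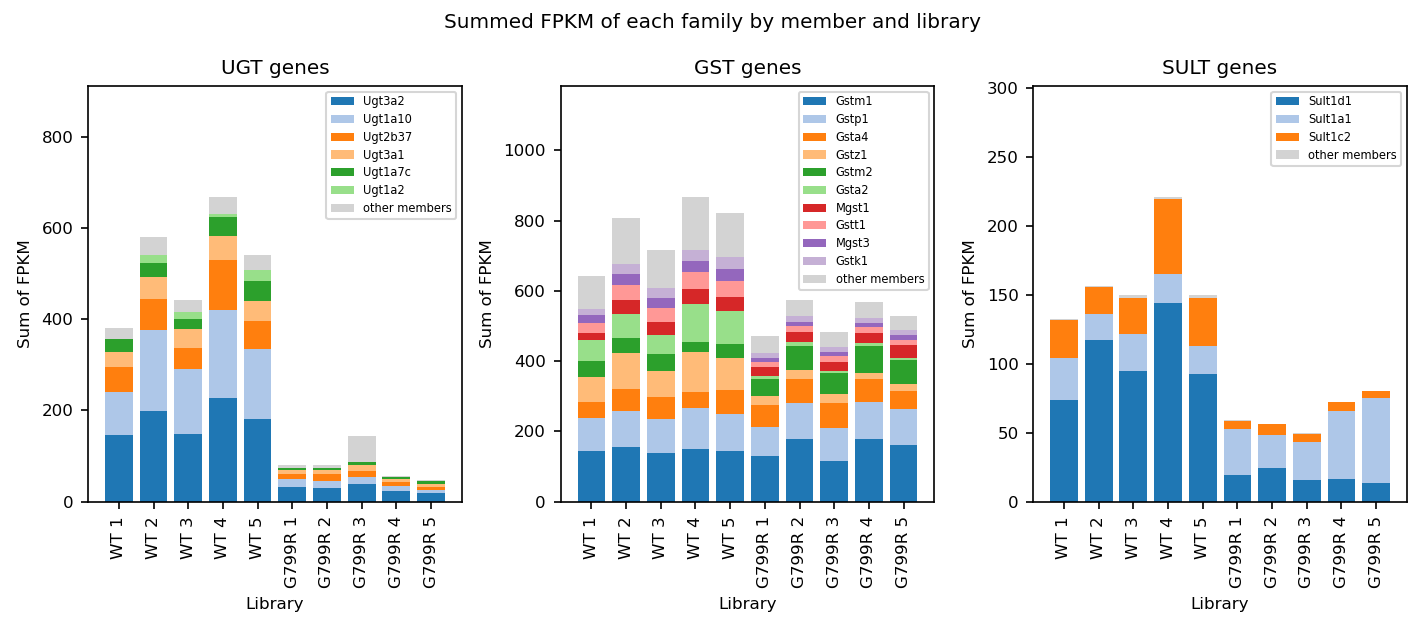
Summed FPKM of the UGT, GST and SULT genes in each library, stacked by member, with wild-type (WT) libraries 1 to 5 to the left of G799R libraries 1 to 5. The UGT sum falls from 380 to 668 FPKM in wild type to 47.3 to 144 FPKM in G799R, and the GST sum falls less. Sult1a1 makes up 42.9% to 76.7% of the SULT sum of a G799R library, 60.0% on average.

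Among SULT genes 3 of 21 passed the filter, all of the Sult1 family, which acts on phenols and amines. Sult1d1, which in mice sulfates dopamine and other catecholamines, was the main one in wild type with 64.2% of the SULT sum. It stood at 73.3, 117, 94.6, 144 and 92.7 FPKM in wild type and 19.1, 24.6, 15.9, 16.2 and 13.5 FPKM in G799R, far apart (log2 difference -2.47 ± 0.19 SE; limma adjusted p = 2.5e-06). Sult1c2 was 5.39-fold lower, at 19.3 to 54.5 FPKM in wild type against 5.07 to 7.28 FPKM in G799R, with no overlap. Sult1a1, a general phenol sulfotransferase, went the other way, at 30.8, 19.0, 26.9, 20.7 and 20.1 FPKM in wild type and 33.4, 24.0, 27.5, 49.5 and 61.5 FPKM in G799R. G799R libraries 4 and 5 stood highest and libraries 2 and 3 lay within the wild-type range. The log2 difference of 0.65 ± 0.24 (SE) was called (limma adjusted p = 0.035), but not on leaving out wild-type library 2, 4 or 5, or G799R library 4 or 5 (0.47 to 0.61, limma adjusted p 0.071 to 0.082), nor under median-of-ratios scaling (0.48, limma adjusted p = 0.10), and it turned to -0.065 after scaling on glomerular markers. The ratio of Sult1d1 to Sult1a1 was 2.38 to 6.93 in wild type and 0.219 to 1.02 in G799R, also a pair chosen after the values were seen.

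The remaining 18 SULT genes were under the filter. Sult1b1, the highest of them, was at 0.282 to 1.42 FPKM in wild type and 0 to 0.122 FPKM in G799R. Sult1e1, which inactivates oestrogens, and 6 of the 9 Sult2 genes, a family that sulfates steroids and bile acids, were listed at 0 in every library, as were Sult3a1 and Sult3a2. The other 3 Sult2 genes reached at most 0.403 FPKM, and Sult4a1, Sult5a1, Sult6b1 and Sult6b2 at most 0.666 FPKM. Of all 30 genes under the filter 14 were listed at 0 throughout.

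Set against the proximal tubule markers, which were lower by 2.78 on the log2 scale of their score, most members differed by less. That scale, log2(FPKM + 1), understates changes of low genes. The level relative to these markers (log2(FPKM + 1) minus the score) was higher in G799R for 29 of the 37 genes by an exact two-sided permutation test, adjusted over all tested genes, where 98.4% of all genes were higher. Among the 29 is Ugt2b38 (3.87), whose value in the libraries where it is at or near 0 is little more than minus the marker score, so that this call says nothing of the gene. The relative level was lower for Ugt1a10 alone, where 0.107% of all genes were lower (difference -0.59, exact permutation p = 0.0079, the smallest that 252 splits allow). The score is a mean, and Ugt1a10 lay within the range of single markers. Looked up after the values were seen, the log2 differences of Miox (-3.63), Slc5a12 (-3.46) and Hpd (-3.40) were below that of Ugt1a10 (-3.36). The other proximal tubule markers fell less than Ugt1a10. Gsta2 (-0.31), Ugt1a2 (-0.26), Ugt3a2 (0.10), Ugt2b37 (0.19), Sult1d1 (0.30), Ugt1a7c (0.32) and Ugt1a1 (0.96) were not called apart from the markers. Leaving out each library gave 26 to 30 members higher: Sult1d1 was called higher without G799R library 1 or 3 (exact permutation, adjusted p = 0.032 and 0.016) and with a pseudocount of 0.1, and Ugt1a1 without wild-type library 2 or 3 (0.048 and 0.040). The calls of Ugt1a6a and Sult1c2 were each lost on leaving out any of 6 libraries and that of Ugt2b34 on leaving out any of 3. Apart from Ugt2b38, the members with the highest relative differences were Sult1a1 (3.43), Gstm2 (3.41) and Gsta4 (2.96). For genes at a few FPKM this measure is set largely by the pseudocount. With a pseudocount of 0.1 the calls of Ugt1a6a (0.086), Ugt1a6b (0.68) and Ugt2b5 (0.030) were lost. Ugt2b34 (-0.073), Ugt1a9 (-0.56) and Ugt2a3 (-0.049), called higher with a pseudocount of 1, turned negative and were not called.

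Set against the pooled podocyte, endothelial and mesangial markers, 32 of the 37 members were lower in G799R and 0 higher by the same exact permutation test, where 71.3% and 2.33% of all genes were. The 5 not called were Mgst1 (-0.92), Gsta4 (-0.50), Gstm2 (-0.05), Sult1a1 (-0.03) and Ugt2b38 (0.41). Leaving out each library gave 31 to 34 lower; without wild-type library 1 Mgst1 (-1.18) and Gsta4 (-0.64) were called lower (exact permutation, adjusted p = 0.014 each), and without G799R library 3 Ugt2b38 was (-0.74, adjusted p = 0.027). The call of Gstp2 was lost without G799R library 1 or 3. When FPKM was instead scaled on glomerular markers and tested by limma, the median of all genes moved from 0.17 to -0.47, 34 members were lower against 70.1% of all genes, and 0 were higher against 3.71%. The members' median was then -1.86. Gstm1, Gstp1, Gsta4, Gstp2, Gstm4, Mgst1 and Gsto2 were called lower under that scaling though not in FPKM as deposited, at -0.96 to -0.42.

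Libraries differed within groups as well. Of the 37 tested genes, wild-type library 1 had the lowest value of its group in 21 and wild-type library 4 the highest in 18, and these libraries had the lowest and highest proximal tubule scores of the group, 6.87 and 7.70. Among G799R libraries, library 5 was lowest in 14 genes and had the lowest proximal tubule score, 3.85. The upper end did not match in this way: library 1, with the highest score, 4.85, was highest in 6 genes and lowest in 5. Library 2, at 4.76, was highest in 11, and libraries 4 and 5 in 7 each.

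**Figure D4:**
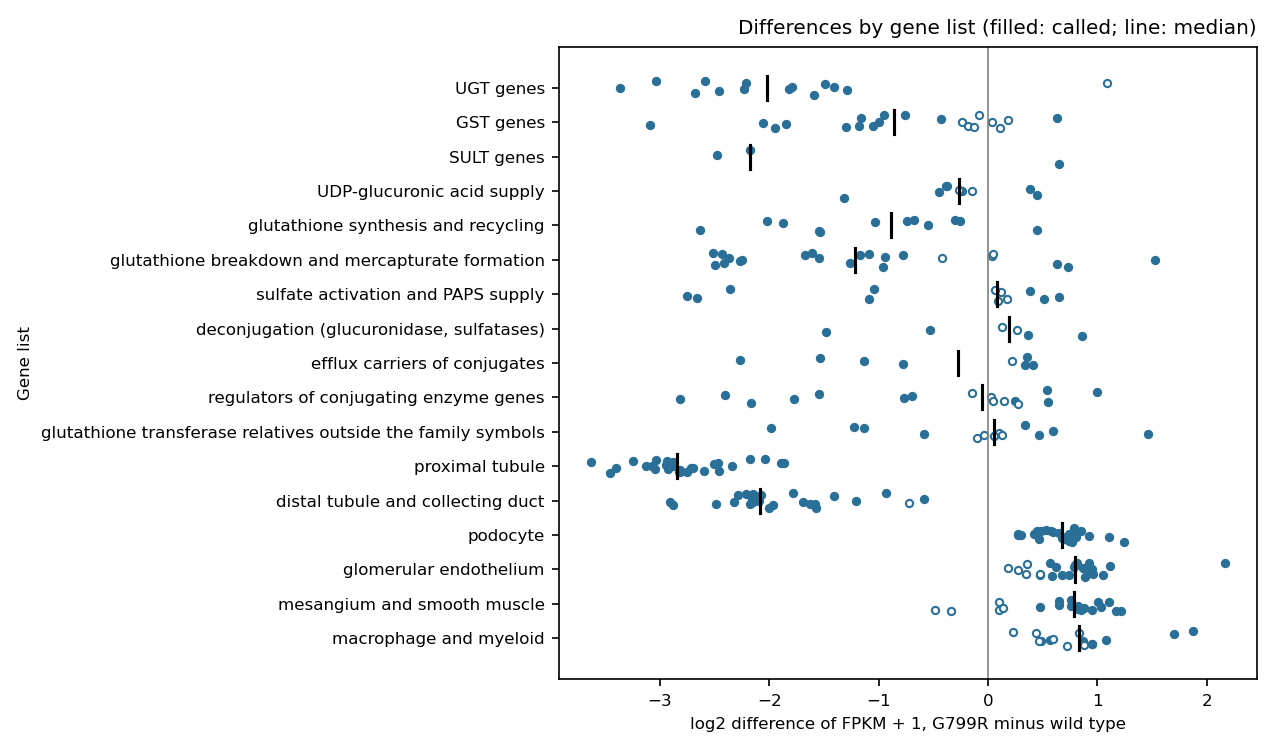
Log2 difference of FPKM + 1, G799R minus wild type, for each tested gene of the 3 families, of the other pathway lists and of cell type markers, with called genes filled and a line at each median. The UGT median of -2.02 lies close to that of the distal tubule list (-2.08), the proximal tubule median is further down (-2.85), and the podocyte genes lie at 0.68.

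Genes that supply and process the conjugates were also measured; the counts below stand against 19.3% of all tested genes lower and 40.5% higher. Of 9 genes of UDP-glucuronic acid supply, 5 were lower and 2 higher, with a median log2 difference of -0.26. Ugdh, which makes UDP-glucuronic acid, was 1.39-fold lower, and Pgm1, which feeds its precursor, 2.70-fold lower. The 2 higher genes were Slc35b1 (1.39-fold) and Pgm2 (1.33-fold, limma adjusted p = 0.0059), so Pgm1 and Pgm2 went opposite ways.

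Of 12 tested genes of glutathione synthesis and recycling 11 were lower and 1, G6pdx, was higher, with a median of -0.89. Cth, which makes cysteine from cystathionine, was 7.79-fold lower, the glutathione peroxidase gene Gpx1 3.73-fold and Gss, the final enzyme of glutathione synthesis, 3.08-fold lower (limma adjusted p = 2.9e-06, 3.0e-06 and 3.3e-06). Gclc and Gclm, the subunits of the limiting enzyme, were 1.49-fold and 2.11-fold lower. Of 22 genes that break down glutathione and its conjugates to mercapturates 16 were lower and 3 higher, with a median of -1.22. Nat8f1 and Nat8f2, relatives of the N-acetyltransferase of the final step, were 6.08-fold and 7.78-fold lower, and the aminoacylase gene Acy1 5.53-fold lower.

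Of 12 genes of sulfate activation 5 were lower and 3 higher, with a median of 0.08. The sulfate carriers Slc13a1 and Slc26a1 were 7.17-fold and 5.81-fold lower. Papss2, which makes PAPS, fell from 44.2 ± 11.3 to 6.23 ± 2.37 FPKM (limma adjusted p = 7.0e-06), whereas Papss1, which makes the same donor, stood at 38.0 ± 0.93 and 41.4 ± 4.42 FPKM and was not called (limma adjusted p = 0.18). Of 6 genes that remove conjugates 2 were lower and 2 higher, among them the sulfatase genes Arsb (2.95-fold lower) and Arsa (1.96-fold higher).

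Of 8 efflux carrier genes 4 were lower and 3 higher. Abcg2, which exports sulfates, was 2.96-fold lower, and Abcc2, which exports glucuronides and glutathione conjugates at the apical membrane, 6.51-fold lower. Abcc1, a basolateral carrier of the same conjugates, was 1.38-fold higher, but was called lower after scaling on glomerular markers (-0.25, limma adjusted p = 0.027). Abcc6 was 19.1-fold lower, from 1.36 FPKM in wild type to 0.071 FPKM in G799R, and Abcc3 was not called (limma adjusted p = 0.2). Of 16 tested regulators 7 were lower and 4 higher, with a median of -0.06. Hnf4a, which drives many tubule and liver genes, was 7.56-fold lower. Nfe2l2, which encodes NRF2, the inducer of many GST genes, had 46.3 ± 1.91 FPKM in wild type and 47.6 ± 6.43 FPKM in G799R, not called apart (limma adjusted p = 0.78), and Keap1, its inhibitor, was 1.52-fold higher. A list of 13 tested genes drawn up as relatives of the GST genes also held Mpst and Faah, which are not of that family. In this list 4 were higher and 4 lower, with Mpst and Faah among the lower. Mpst, Faah and Ptges were 2.51-fold, 6.53-fold and 4.67-fold lower, and Ltc4s was not called (limma adjusted p = 0.79). Alox5ap, a myeloid member of the membrane family of Mgst1, was at 3.90 ± 2.17 FPKM in wild type and 11.7 ± 2.46 FPKM in G799R, and 8 of 15 macrophage and myeloid markers were higher in the same libraries, against 40.5% of all genes, and 3 of 15 after scaling on glomerular markers, with a summed FPKM of 60.6 to 142 in wild type and 155 to 262 in G799R. Several of these genes were named after their values were seen: Gclc, Gclm, Ugdh, Pgm2, Papss1, Nfe2l2, Keap1, Abcc1, Abcc3, Ptges, Ltc4s and G6pdx. After scaling on glomerular markers the members of these 8 pathway lists were mostly lower, with 0 or 1 higher in each list.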

How the data were processed

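RNA-seq was done on glomeruli of 5 wild-type and 5 G799R libraries. The authors deposited 1 table of FPKM values, per the file headers. The submitters' processing notes name RSEM, StringTie 1.3.1, HISAT2, Bowtie2 2.2.8 and fastp 0.18.0, without their roles; for the genome build they used: not given in the sources used here. Columns were matched by the name in each library's label. Symbols were found for 21963 of 22053 identifiers, with positions from GENCODE M21 (GRCm38).

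FPKM was used as deposited, as log2(FPKM + 1), which understates changes of low genes; folds are ratios of mean FPKM. The test was limma-trend (limma 3.58.1, R 4.3.3) on genes averaging 0.5 FPKM or more, two-sided, adjusted after Benjamini-Hochberg over 13117 genes, threshold 0.05. Values relative to marker scores were tested with an exact permutation test and adjusted over all tested genes, not over the members as first planned. FPKM gives no count model or counting interval. The fit was tested on simulated data.

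The members, lists and alternatives were chosen with earlier results of these data known. Named genes were up to 4 of the highest per subfamily, the 8 largest falls, all rises, and up to 3 per list by p; others are said to be chosen later. The replicate numbers of the labels did not pair libraries. Alternatives were other pseudocounts, filters, scalings, limma settings, a replicate block, a tubule covariate and leaving out libraries. Python 3.11.15 with NumPy 2.4.6 was used. A regulator gene and a promoter motif are not reported here.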

Additional observations from a re-analysis of the deposited data

Results flagged for a closer look

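A library stood apart from the other 4 of its group, by the gap to its neighbour over the range on the log2(FPKM + 1) scale, in 8 of 74 groups of 5 libraries, and chance flags about 1 in 20 groups. In 4 of the 8 it was wild-type library 1, which was low: Mgst1 stood at 19.6 FPKM there and at 35.2 to 43.0 in the other wild-type libraries, Gstk1 at 18.8 against 29.3 to 34.7, Gstt1 at 27.1 against 40.6 to 46.9, and Ugt2b5 at 1.32 against 2.87 to 3.36. That library also had the lowest proximal tubule score of its group, 6.87, and the part of the score in these values was not tested. Gstp2 was low in wild-type library 2, at 2.06 FPKM against 2.71 to 3.003. Among G799R libraries Ugt1a7c was low in library 4, at 3.66 FPKM against 5.16 to 5.87, and Ugt1a9 high in library 1, at 0.909 FPKM against 0 to 0.205. Ugt2b38 reached 54.7 FPKM in G799R library 3, against 0 to 0.031 FPKM for the rest of its group.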

How the results depend on the processing

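The count of 27 of 37 members lower ranged from 22 to 34 over the alternatives, apart from the covariate fit, but the number tested also changed. It was 22 of 31 with a filter of mean 2 FPKM, 28 of 53 with no filter and 34 of 37 under glomerular marker scaling. Of all genes 19.1%, 15.9% and 70.1% were lower in these settings. With the proximal tubule score as a covariate 0 members were lower and 0 higher, in UGT, GST and SULT genes alike; limma then called 0 of all genes (819 at an unadjusted p under 0.05) and the median SE rose from 0.11 to 0.44. The 2 higher members became 1 with no filter, under median-of-ratios scaling, under quantile normalisation and without G799R libraries 3 and 4, and 0 under glomerular marker scaling, where 19 GST members were lower. Leaving out each library gave 1 to 2 higher members. The replicate numbers did not pair the libraries (correlations of deviations -0.085 to 0.048); with a replicate block 26 members were lower and 2 higher, Gstm6 being lost (-0.43, limma adjusted p = 0.074).

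Signs turned as follows, and the cause was not tested. Under glomerular marker scaling Gstm1 stood at -0.70, Gstp2 at -0.44, Gsta4 at -0.55, Gstm2 at -0.098 and Sult1a1 at -0.065. Gstm1 also turned under median-of-ratios scaling (-0.14), quantile normalisation (-0.084) and without G799R library 2 (-0.023) or 4, its range over left-out libraries being -0.026 to 0.13, and Gstp2 under median-of-ratios scaling (-0.018). With the covariate Ugt2b37 was at 0.29, Ugt1a6b 1.58, Ugt1a9 0.62, Gsto1 0.65, Gstm6 0.064, Mgst1 0.18, Gstm4 0.66, Gstm1 -0.23, Gstm2 -0.76 and Sult1a1 -2.20. Without G799R library 3 Ugt2b38 was at -0.065 (without 3 and 4, -0.062; range -0.065 to 1.38). Relative to proximal tubule markers, a pseudocount of 0.1 gave Ugt1a1 -0.91, Ugt2b34 -0.073, Ugt1a9 -0.56 and Ugt2a3 -0.049, and Ugt1a2 was at 0.069 without wild-type library 5 (range -0.77 to 0.069). Relative to glomerular markers Gstm2 was at 0.033 without G799R library 1 (range -0.10 to 0.033), Sult1a1 at 0.00065, 0.0098, 0.12 and 0.083 without wild-type library 1 or 4 or G799R library 2 or 3 (range -0.22 to 0.12), and Ugt2b38 at -0.74 without G799R library 3 (range -0.74 to 0.72).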

Other observations

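Ugt2b38 in G799R library 3 had a parallel: in the whole table, genes at 20 FPKM or more in a single library and under 0.5 FPKM in the other 9 numbered 2, and both were in that library. The other was Cxcl13, a chemokine that attracts B cells, at 50.1 FPKM there and at most 0.285 elsewhere. Ugt2b38 shares 37.4% of its 50-base stretches with other transcripts, mostly of Ugt2b5, which stood at 0.202 FPKM in the same library.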
